A study of Mus musculus with 4 samples.

Results

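Enteroendocrine cells are the scattered hormone-secreting cells of the gut lining, and 10 of their genes were followed here across 4 RNA samples of mouse intestine. The genes were 7 that encode hormone or peptide precursors (Gcg, Gip, Cck, Sct, Sst, Pyy and Tac1), the 2 granins Chga and Chgb, and the transcription factor Neurod1. They were taken by gene symbol, each symbol had 1 probe set that named no other gene, and they made up 10 of 19937 genes with a symbol of their own on the array. The tissue of all samples was intestinal epithelium, from adult mice of strain C57BL/6, with protein and RNA joined by ultraviolet light. The groups were input RNA with no antibody, a precipitation with IgG, a precipitation with the Msi1 antibody Millipore AB5977, and a precipitation with an antibody labelled hnRNP, whose target protein is not given further. Each group was 1 Affymetrix Mouse Gene 1.0 ST array of RNA combined from 2 experiments, with 100 ng of RNA labelled, so no value has a replicate and no test was possible. The labels give neither the region of the intestine nor the number of mice.

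Enteroendocrine cells arise from the crypt stem cells through the factors Neurog3 and Neurod1. Each subtype stores its peptides in dense granules until stimuli, such as nutrients for some subtypes, trigger their release. Granins help form these granules, and prohormone convertases cut the precursors into active hormones. Musashi1 (Msi1) is an RNA-binding protein of progenitor cells that controls translation and stability of the messages it binds. The design ranked transcripts by their enrichment with the Msi1 antibody over IgG, and for the hormone genes the question was whether their messages stood among those enriched.

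All 10 genes were above background in the input. Of the 8 that could be tested between Msi1 and IgG, 0 passed 2-fold higher with the Msi1 antibody as deposited, beside 18.6% of all genes tested. With each array centred on its own background, 1 did (Neurod1, 1.04), a gene 0.0054 above the Msi1 floor and below the IgG floor. Of the 10 genes, Chga, Gcg, Gip, Cck and Sst were at least 2-fold lower in each of the 3 precipitations than in the input as deposited. Of all genes tested, 38.3% were lower in Msi1, 44.7% in IgG and 43.3% in hnRNP. The share of all genes lower in all 3 was not counted. Loess centring sets each difference against genes of like signal. It kept the directions of Chga, Gcg, Gip, Cck and Sst in Msi1. In IgG it turned Chga, Gip and Sst to 0 or above, and in hnRNP Chgb, Gip and Sst. As deposited, Sct, Pyy, Tac1 and Neurod1 differed from the input by less than 2-fold in all 3, and Chgb was past 2-fold lower with the hnRNP antibody alone. With loess centring Pyy (1.85 in IgG, 2.16 in hnRNP) and Sct (1.11 and 1.16) were past 2-fold higher there, Neurod1 was lower in IgG (−1.01) and Tac1 lower in hnRNP (−1.15). Neurod1 and Tac1 were below the floors of those arrays and near that of the input, so no direction can be read for them. A log2 difference of 1 is 2-fold. In the level of a gene in the input, which is bulk RNA, fewer enteroendocrine cells and less RNA per cell cannot be told apart. A difference from the input compares the RNA recovered in a precipitation with that RNA, and not the cells.

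Background was read from 1208 probe sets of olfactory and vomeronasal receptors, which gut epithelium should not express. The 95th percentile of their signals served as each array's detection floor, and on the log2 scale it was 4.09 in the input, 5.26 with IgG, 4.74 with Msi1 and 5.17 with hnRNP. All 10 genes exceeded the floor in the input, 6 on the IgG array, 7 on the Msi1 array and 5 on the hnRNP array. Over all genes, 59.1% exceeded the floor in the input, 28.1% with IgG, 47.8% with Msi1 and 32.9% with hnRNP. The 9 epithelial markers Epcam, Cdh1, Krt8, Krt18, Krt19, Vil1, Cdx1, Cdx2 and Lgals4 were all above the input floor, at 6.69 to 12.79. The label of epithelium thus had its markers in the input.

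The promoters of the 5 genes at least 2-fold lower than input in every precipitation as deposited are shown, along with that of Chgb, the other granin. The arrays measured RNA and no binding to these regions. Each sequence is the 150 bases upstream of an annotated transcript start, from RefSeq on GRCm38.p6, and all 10 genes matched an entry. The start used is not always the outermost of the gene. The Sst window lies inside the annotated span of its gene (23889573 to 23891342), and the Gip window ends inside its gene, which begins at 96024532. Capitals mark TGACG on either strand, which is the core of the cyclic AMP response element, the whole palindrome TGACGTCA that contains it, and the E-box sequences CAGATG on either strand and CAGCTG, letters of the kind that Neurod1 and related factors bind.
Sst (chr16:23890845-23890994, minus strand): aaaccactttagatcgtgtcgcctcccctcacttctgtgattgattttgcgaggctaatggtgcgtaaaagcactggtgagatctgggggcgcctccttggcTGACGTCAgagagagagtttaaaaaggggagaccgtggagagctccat
Chgb (chr2:132781492-132781641, plus strand): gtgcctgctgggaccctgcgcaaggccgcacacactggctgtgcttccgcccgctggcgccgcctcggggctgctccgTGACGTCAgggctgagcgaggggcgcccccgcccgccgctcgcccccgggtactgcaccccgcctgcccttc
Chga (chr12:102554791-102554940, plus strand): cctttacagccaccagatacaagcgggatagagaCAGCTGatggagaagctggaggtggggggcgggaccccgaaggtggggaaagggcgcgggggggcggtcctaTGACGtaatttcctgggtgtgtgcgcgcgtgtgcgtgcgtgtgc
Cck (chr9:121495695-121495844, minus strand): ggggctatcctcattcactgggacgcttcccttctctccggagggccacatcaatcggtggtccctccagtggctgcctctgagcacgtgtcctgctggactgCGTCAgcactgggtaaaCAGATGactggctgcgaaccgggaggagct
Gip (chr11:96024395-96024544, plus strand): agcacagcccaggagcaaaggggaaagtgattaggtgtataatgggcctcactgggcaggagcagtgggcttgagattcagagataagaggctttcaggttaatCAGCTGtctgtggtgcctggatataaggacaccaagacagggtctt
Gcg (chr2:62483654-62483803, minus strand): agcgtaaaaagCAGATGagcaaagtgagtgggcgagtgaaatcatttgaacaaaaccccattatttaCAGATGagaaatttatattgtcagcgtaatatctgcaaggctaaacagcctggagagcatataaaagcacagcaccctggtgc
The core TGACG was present in 5 of the 10 genes (Cck, Chga, Chgb, Sst and Tac1), against 13.3% of 32851 promoter windows of the same length. The palindrome TGACGTCA, which includes the core on both strands, was in Sst and Chgb, beginning 48 and 72 bases before the start, and in 1.36% of all windows. In Chga, Cck and Tac1 the core lay 44, 47 and 43 bases before the start. CAGCTG was in Chga, Gip and Sct (8.39% of windows), and CAGATG was in Cck and at 2 places in Gcg (8.81%). These matches are letters in a window and were not measured as binding sites.

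The granins are acidic proteins of the dense granule and general markers of endocrine cells. Chga, chromogranin A, read 7.57 in the input, 5.58 with IgG, 4.83 with hnRNP and 4.14 with Msi1. It was high in the input alone, close to the floor with IgG and below the floor on the other two arrays. Chga was at least 7.12-fold lower in Msi1 than in input (−3.43), at least 5.29-fold lower in hnRNP (−2.74) and 3.98-fold lower in IgG (−1.99).

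Chgb, chromogranin B, read 6.68 in the input, 6.02 with IgG, 6.25 with Msi1 and 5.45 with hnRNP. It was above the floor on all 4 arrays and stood 1.51 above it with Msi1. Chgb was 1.35-fold lower than input in Msi1 (−0.43), 1.57-fold lower in IgG (−0.65) and 2.34-fold lower in hnRNP (−1.22), as deposited. The direction depended on the scaling, as quantile normalization gave 0.53, 0.57 and −0.25 and loess centring 1.01, 1.38 and 0.37 in the same order.

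Gcg and Gip encode related peptides of the secretin and glucagon family. Gcg is the precursor of the glucagon-like peptides in L cells, and Gip, the glucose-dependent insulinotropic peptide, is the incretin of K cells in the upper gut. Gcg read 6.46 in the input, 4.66 with both IgG and Msi1, and 3.93 with hnRNP. It was below the floor in every precipitation, by 0.60, 0.08 and 1.23 log2 units in that order. Against the floors and as deposited, Gcg was at least 3.30-fold lower than input in Msi1, at least 2.29-fold in IgG and at least 2.45-fold in hnRNP. With loess centring its difference in IgG was under 2-fold (−0.95).

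Gip read 7.85 in the input, 5.44 with IgG, 5.86 with Msi1 and 5.46 with hnRNP. It stayed above the floor on every array, by 1.13 with Msi1 and by only 0.17 and 0.29 with IgG and hnRNP. As deposited, Gip was 3.96-fold lower than input in Msi1 (−1.98), 5.32-fold lower in IgG (−2.41) and 5.25-fold lower in hnRNP (−2.39). Quantile normalization gave −0.64, −1.05 and −1.04 in the same order, and loess centring −0.36, 0.01 and 0.0031.

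Secretin, from Sct, is the hormone of S cells that calls forth bicarbonate from the pancreas, and it also belongs to the glucagon family. Sct read 6.03 in the input, 5.76 with IgG, 5.77 with Msi1 and 5.81 with hnRNP. The values were level, with a spread of 0.27 over the 4 arrays and 0.05 over the 3 precipitations, and all were above their floors. Its differences from input were −0.26 in Msi1, −0.27 in IgG and −0.22 in hnRNP as deposited, and 0.81, 1.11 and 1.16 with loess centring.

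Cholecystokinin, from Cck, is released by I cells after fat and protein and empties the gallbladder. Cck read 6.87 in the input, 4.78 with IgG, 4.28 with Msi1 and 4.61 with hnRNP. Only the input value was above its floor. As deposited, Cck was at least 4.38-fold lower than input in Msi1 (−2.58), at least 3.03-fold lower in IgG (−2.08) and at least 3.25-fold lower in hnRNP (−2.26). With loess centring its difference in IgG was under 2-fold (−0.81).

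Somatostatin, from Sst, is the inhibitory peptide of D cells, and is also made by enteric neurons. Sst read 8.08 in the input, 5.77 with IgG, 6.16 with Msi1 and 5.83 with hnRNP. It was above the floor on all 4 arrays, as Gip was. As deposited, Sst was 3.78-fold lower than input in Msi1 (−1.92), 4.94-fold lower in IgG (−2.31) and 4.76-fold lower in hnRNP (−2.25). Quantile normalization gave −0.53, −0.74 and −0.70 in the same order, and loess centring −0.21, 0.47 and 0.52.

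Peptide YY, from Pyy, is the satiety hormone of L cells in the lower gut. Pyy read 5.63 in the input, 6.13 with IgG, 5.66 with Msi1 and 6.33 with hnRNP. It was above the floor everywhere, and it was the 1 gene of the 10 whose input value was the lowest of the 4 as deposited. Its differences from input were then 0.03 in Msi1, 0.50 in IgG and 0.70 in hnRNP, none past 2-fold. They were 0.87, 1.85 and 2.16 with loess centring, 0.55, 1.32 and 1.52 with quantile normalization, and −0.59, −0.47 and −0.20 with centring on the receptor median. Gcg is made by the same L cells, and its signal was lower than input in all 3 precipitations.

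Tac1, the precursor of substance P and made by enterochromaffin cells and enteric neurons, read 4.72 in the input, 4.56 with IgG, 4.80 with Msi1 and 4.29 with hnRNP. Neurod1, the transcription factor, read 4.41 in the input, 4.23 with IgG, 4.74 with Msi1 and 4.38 with hnRNP. Both lay within 0.63 of the input floor and within 0.06 of the Msi1 floor, and below the floors of IgG and hnRNP. The spread of each over the 4 arrays was 0.51, so at this signal neither a gain nor a loss could be told from background.

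**Figure D1:**
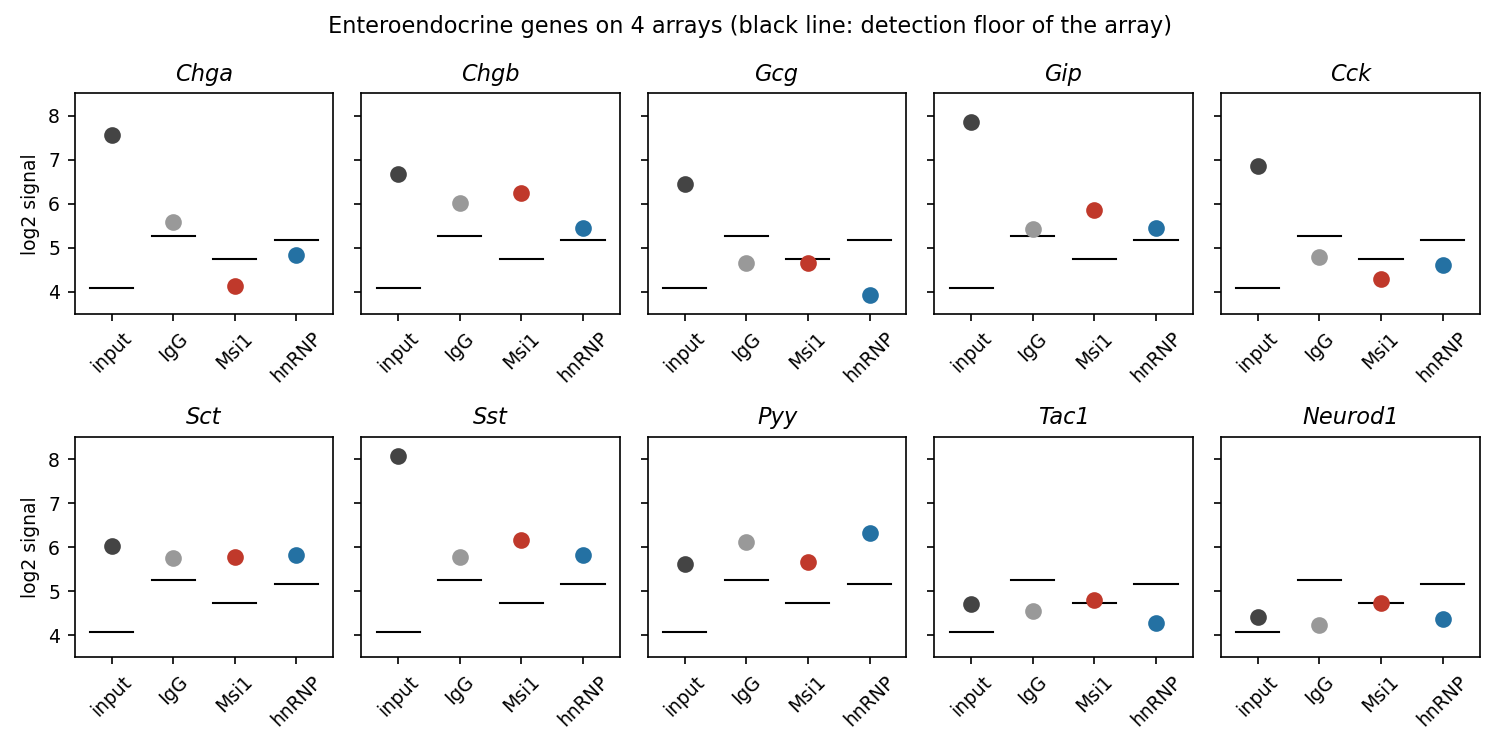
Log2 signal (vertical axis) of each of the 10 genes on the input, IgG, Msi1 and hnRNP arrays (horizontal axis, 1 point per array), with each array's detection floor as a black line. Chga, Gcg, Gip, Cck and Sst stand 2.37 to 3.99 above the floor in the input. In the precipitations they stand at most 1.43 above it. Chgb, Gip, Sct, Sst and Pyy stay above every floor. Levels of different genes are not comparable.

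As deposited, 5 of the genes were past 2-fold lower than input in all 3 precipitations and 4 were within 2-fold in all 3, a split that other scalings changed. The share of all genes with either pattern was not counted, and the 3 differences share 1 input array, so this split has no background beside it. In Msi1, 5 of 10 genes were at least 2-fold lower than in input, where 38.3% of 12782 genes tested were, and 0 were higher, where 11.8% were. In IgG the same count was 5 of 10, beside 44.7% of all genes lower, and 0 were higher, beside 16.6%. In hnRNP, 6 of 10 were lower, beside 43.3%, and 0 were higher, beside 18.7%. Genes were tested where 1 or both of the compared arrays showed them over the floor. All 10 genes were above the input floor, and among all 11786 such genes the shares lower than input were 41.6% in Msi1, 48.1% in IgG and 47.3% in hnRNP. The counts of hormone genes are thus near the background.

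The median difference of the 10 genes was −1.12 in Msi1, −1.22 in IgG and −1.74 in hnRNP, all against the same input array. The medians over all genes tested were −0.57, −0.71 and −0.65, and over the genes above the input floor −0.70, −0.91 and −0.87. In Msi1 against input, the 5 lower genes stayed lower under all 5 other scalings of the arrays, with Chga between −4.08 and −2.38, Cck between −3.23 and −1.77 and Gcg between −2.45 and −1.05. Gip and Sst lay between −2.63 and −0.36 and between −2.57 and −0.21, so that both ended under 2-fold with loess centring and with quantile normalization. The directions against input in the other precipitations depended on the scaling, as loess centring put Chga at 0.33, Gip at 0.01 and Sst at 0.47 in IgG and Chgb at 0.37, Gip at 0.0031 and Sst at 0.52 in hnRNP. Scaling on the receptor median moved the median of all genes by −0.62 in Msi1 against input and by −0.96 in IgG against input, and then 9 of the 10 genes were at least 2-fold lower in IgG. With loess centring 1 was lower and 3 were higher in IgG, and 3 were lower and 2 higher in hnRNP. The share of all genes past 2-fold was not counted under these scalings, so these counts have no background beside them.

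**Figure D2:**
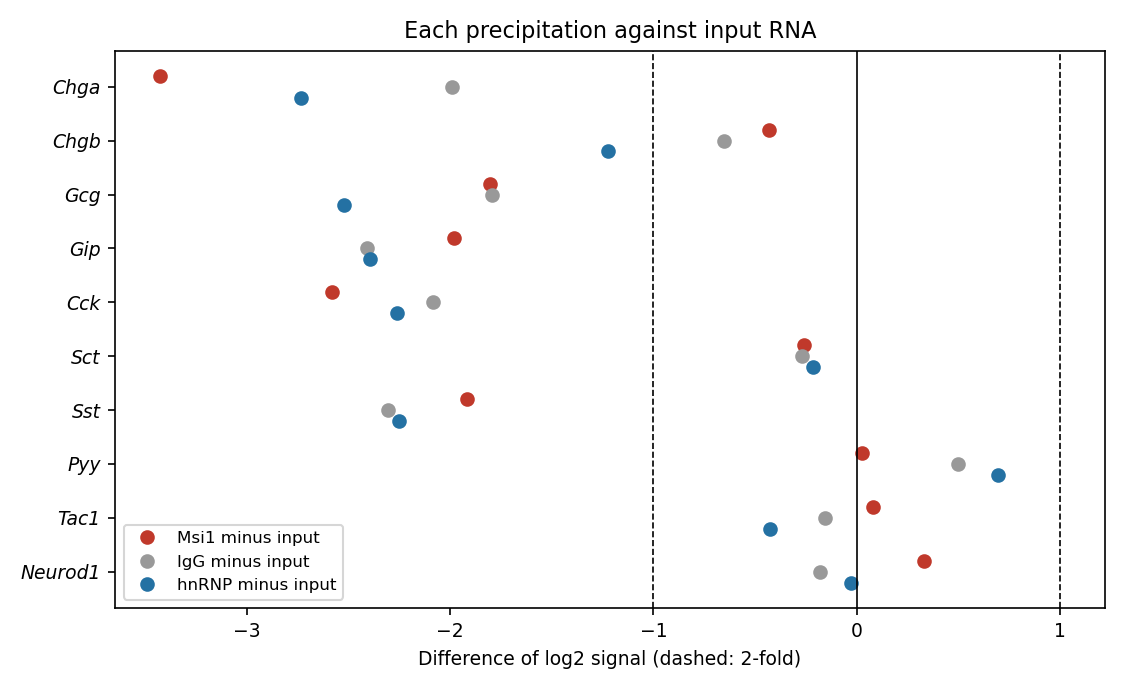
Difference of log2 signal from the input array (horizontal axis) for each gene (vertical axis) with the Msi1 antibody, IgG and the hnRNP antibody; dashed lines mark 2-fold. As deposited, Chga, Gcg, Gip, Cck and Sst lie left of the lower line in all 3 and Pyy lies at or above 0 in all 3; with loess centring the IgG values of Chga, Gip and Sst turn to 0.33, 0.01 and 0.47, and those of Chgb, Sct and Pyy to 1.38, 1.11 and 1.85.

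Against IgG, the comparison the study ranked by, 8 of the 10 genes could be tested, and Gcg and Cck were below both floors. Of these 8, 0 passed 2-fold higher in Msi1, where 18.6% of 10368 genes tested did, and 21.3% of the 8944 above the input floor. Past 2-fold lower was 1 gene, where 6.91% and 4.54% were. That gene was Chga, at 4.14 against 5.58 (−1.43), or a fold of at least 1.79 with the Msi1 value raised to its floor, which is under 2-fold. Since Chga was below the Msi1 floor and 0.31 above the IgG floor, this difference rests on values near background. It was −0.91 with each array centred on its own floor.

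As deposited, the other genes tested differed by less than 2-fold between Msi1 and IgG. Neurod1 was higher by 0.51, Gip by 0.43, Sst by 0.39, Tac1 by 0.24, Chgb by 0.22 and Sct by 0.01, and Pyy was lower (−0.47). Gip was 1.34-fold and Sst 1.31-fold higher in Msi1, while no fold is given for Tac1 and Neurod1, whose Msi1 values lay below the IgG floor. The median of the 8 genes was 0.23 and that of all genes tested 0.06, or 0.16 over those above the input floor. Chgb and Sct turned slightly negative (−0.04 and −0.15) and Pyy slightly positive (0.06) under some scalings. With each array centred on its floor, Gip was higher in Msi1 by 0.96, Sst by 0.92, Tac1 by 0.76, Chgb by 0.75 and Sct by 0.54. Neurod1 was then past 2-fold (1.04). The size of these differences thus depended on the scaling.

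**Figure D3:**
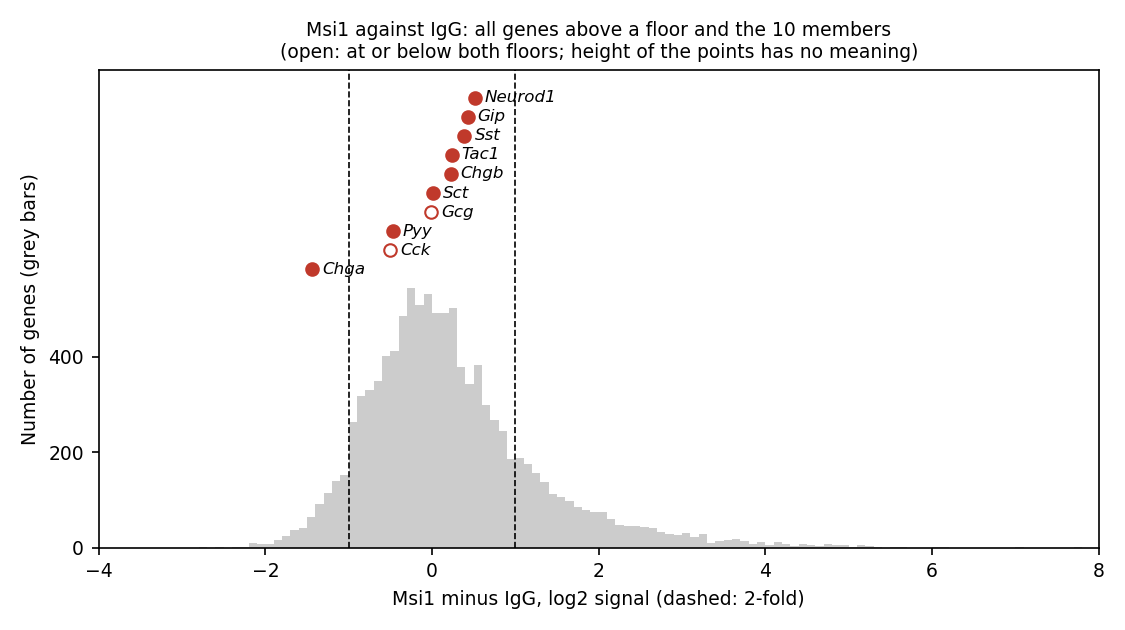
Histogram of the Msi1 minus IgG difference of log2 signal (horizontal axis) over all 10368 genes above a floor (number of genes on the vertical axis), with the 10 genes placed above it as points at arbitrary heights. Filled points were above at least 1 floor, open points (Gcg and Cck) below both, and Chga alone passes a 2-fold line (dashed), which it does not with each array centred on its floor (−0.91).

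The hnRNP antibody gave values close to those of IgG. Of 6 genes tested, 0 passed 2-fold higher in hnRNP than in IgG, beside 6.26% of all 7917 genes tested, and 0 were lower, beside 4.51%. Gip, Sct and Sst differed by 0.02, 0.05 and 0.06, and Pyy by 0.20. Chga and Chgb were the lowest at −0.74 and −0.57.

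Between the Msi1 and hnRNP antibodies, Chgb was 6.25 against 5.45, or 1.73-fold higher in Msi1 (0.79) as deposited. It was 0.78 with quantile normalization, and past 2-fold with each array centred on its receptor median (1.08) or on its floor (1.22). Pyy was 1.59-fold lower in Msi1 (−0.67, or −0.97 with quantile normalization and −0.24 with centring on the floor), Gip 1.33-fold higher and Sst 1.26-fold higher. In this comparison 0 of 7 genes passed 2-fold higher, beside 17.5% of 10673 genes, and 0 were lower, beside 7.79%.

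Across the 3 precipitations alone, the signals of a gene spanned 0.05 (Sct) to 1.43 (Chga), with a median of 0.51. For 9 of the 10 genes the span was under 2-fold, as it was for 69.3% of the 11786 genes above the input floor, whose median span was 0.73.

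Gip and Sst had almost the same pattern over the arrays. After each gene was centred on its own mean, the distance between them over the 4 values was 0.11 log2 units (Euclidean), and Gip was among the 5 genes nearest to Sst of 12684 compared. The genes nearest to Sst were Wdr36, Tars and Uap1, and those nearest to Gip were Smu1, Ahsa1 and Tm7sf3. Nearest to Chga were Slc39a5, Mpdu1 and Znrd2 (0.19 to 0.30). Cck was the nearest of the 10, and 129 genes, with Cck itself counted, were at least as near to Chga. Those nearest to Chgb were Slc45a4, Micos10 and Ranbp9, and those nearest to Pyy were Rgs8, Slc26a11 and Urad. With 4 values a gene, such likeness describes the arrays and nothing else.

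The factors that specify enteroendocrine cells were mostly near background. Of 20 sought, 17 were found, 14 exceeded the input floor and 9 the Msi1 floor, beside 59.1% and 47.8% of all genes. In Msi1 against IgG, 1 of 9 tested passed 2-fold higher, beside 18.6% of all genes, and 0 were lower, beside 6.91%. The higher 1 was Atoh1, the factor that starts the secretory lineage as a whole. Atoh1 read 7.11 in the input, 5.03 with IgG, 6.30 with Msi1 and 4.84 with hnRNP, so it was above the floor in input and Msi1 alone, and Msi1 exceeded IgG at least 2.05-fold (1.27). The count of higher factors was 2 with centring on the floor and 0 with detection required on both arrays. Neurog3, which commits cells to the endocrine fate, read 5.21, 5.24, 5.33 and 5.36 on the input, IgG, Msi1 and hnRNP arrays, and Insm1, a later factor, 5.56, 5.53, 6.03 and 5.78. Foxa1, a factor of endoderm, read 6.80 in input and 5.50 in Msi1 and was the 1 gene of 15 tested that was at least 2-fold lower in Msi1 than in input (−1.31). Mnx1 was the 1 that was higher (1.18), from an input value of 4.04 below the floor. Of all genes tested, 38.3% were lower and 11.8% higher in Msi1 than in input. With centring on the receptor median or the floor, 0 factors were higher than input and 3 or 4 lower. Sox4 differed by −0.16 between Msi1 and IgG. The median differences were 0.14 from IgG and 0.10 from input.

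Among other hormones and the enzymes of serotonin, 9 of 17 genes found were above the input floor, beside 59.1% of all genes. As deposited, 0 of 8 tested passed 2-fold in either direction between Msi1 and IgG, beside 18.6% of all genes higher and 6.91% lower. In Msi1, 3 were lower with quantile normalization and 1 with loess centring. Against the input, 2 of 10 were lower in Msi1, beside 38.3% of all genes, and 2 higher, beside 11.8%. Centring on the receptor median or the floor gave 4 lower and 1 higher. Ddc, which makes serotonin and dopamine and is also active in enterocytes, read 8.26 in the input, 4.99 with IgG, 5.25 with Msi1 and 4.62 with hnRNP, 8.08-fold lower in Msi1 than in input. Slc18a1, the monoamine transporter of enterochromaffin granules, read 5.78 in input and 3.87 to 4.04 in the precipitations, all below their floors. Ghrl, the ghrelin precursor, read 6.15 in input and 5.43, 5.47 and 5.46 in IgG, Msi1 and hnRNP, and Tph1, the rate-limiting enzyme of serotonin synthesis in the gut, read 4.89, 4.90, 4.44 and 5.03 on the 4 arrays. Ppy, pancreatic polypeptide, was 5.13 in input and 5.65 in Msi1. The neuropeptide genes Npy and Penk were the 2 of 10 tested past 2-fold higher in Msi1 than in the input (1.42 and 1.76), and they read 6.49 and 5.71 with IgG against 5.55 and 5.64 with Msi1. Npy was 4.14 in input, at its floor, and Penk 3.88, below it. The median differences of the list were −0.11 from IgG and 0.02 from input.

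Of the genes of the granule and of prohormone processing, apart from the granins above, 25 were found. Of these, 18 exceeded the input floor, beside 59.1% of all genes. As deposited, 0 of 11 tested passed 2-fold in either direction between Msi1 and IgG, beside 18.6% of all genes higher and 6.91% lower. With quantile normalization 2 were lower, and with centring on the floor 1 was higher. Against input as deposited, 3 of 18 passed 2-fold higher in Msi1, beside 11.8% of all genes, and 0 lower, beside 38.3%. The number lower was 2 with median centring, 1 with quantile normalization, 3 with loess and 4 with centring on the receptor median or the floor, and under those last 2 scalings 0 were higher. The 3 higher genes were Scg5, the chaperone of a convertase (1.26), Vgf, a granin-like precursor (1.22), and Syt7, a calcium sensor of exocytosis (1.28). All 3 lay close to the floor in the input, at 4.50, 4.14 and 4.27, and Scg5 and Syt7 read 6.43 and 5.93 with IgG against 5.76 and 5.55 with Msi1. Pcsk1, the convertase of enteroendocrine cells, read 5.36 in input and 4.42 in Msi1, where it was below the floor (−0.94). Rph3al, which binds granule Rab proteins, read 6.27 in the input, 6.75 with IgG, 6.16 with Msi1 and 6.63 with hnRNP. Ptprn2 and Pcsk1n differed from IgG by −0.04 and −0.40, and Rab27a by 0.18. The median differences were −0.27 from IgG and 0.15 from input.

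Of the nutrient sensors, 8 of 17 found were above the input floor, beside 59.1% of all genes. The transporters Slc5a1 for glucose and Slc15a1 for peptides, both also abundant in enterocytes, read 9.76 and 8.83 in input and 5.99 and 5.23 in Msi1, and were 13.7-fold and 12.1-fold lower in Msi1. They were the 2 of 9 tested past 2-fold lower than input, beside 38.3% of all genes. Piezo2, a mechanosensitive channel, was the 1 that was higher (1.36), beside 11.8% of all genes, from an input value of 3.45 below the floor. With the mean of its 3 probe sets no sensor was higher, a count of 0. With centring on the receptor median or the floor, 0 sensors were higher and 4 lower than input. Against IgG, 0 of 7 were higher in Msi1, beside 18.6% of all genes, and 1 was lower, beside 6.91%. The lower 1 was the potassium channel gene Kcnj11, at 5.14 against 6.29 (2.21-fold). With centring on the receptor median or the floor 0 were lower, and with the floor 2 were higher. The bile acid receptor Gpbar1 differed from IgG by −0.02, and Trpm5, a taste channel, was below the floors of Msi1 and IgG. The medians were −0.02 from IgG and −0.10 from input.

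Receptors for the hormones themselves were near background, with 4 of 19 above the input floor, beside 59.1% of all genes. Against IgG, 0 of 5 tested passed 2-fold higher in Msi1, beside 18.6% of all genes, and 1 passed it lower, beside 6.91%. The lower 1 was the somatostatin receptor Sstr4, at 4.93 against 6.00 (2.10-fold). The median of the 5 was −0.80. The number lower was 0 with centring on the median, the receptor median or the floor, and 3 with quantile normalization. Glp1r, the receptor of a Gcg product, read 5.63 in input and 3.75 in Msi1, at least 1.86-fold lower, and was the 1 of 4 tested past 2-fold against input as deposited (−1.88). Of all genes tested, 38.3% were lower and 11.8% higher in Msi1 than in input. Cckar, a cholecystokinin receptor, was below the floor on every array, at 4.38 with Msi1 and 5.07 with hnRNP. Gipr and Gcgr differed from input by 0.63 and 0.36 in Msi1, and the median of the 4 was 0.45.

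**Figure D4:**
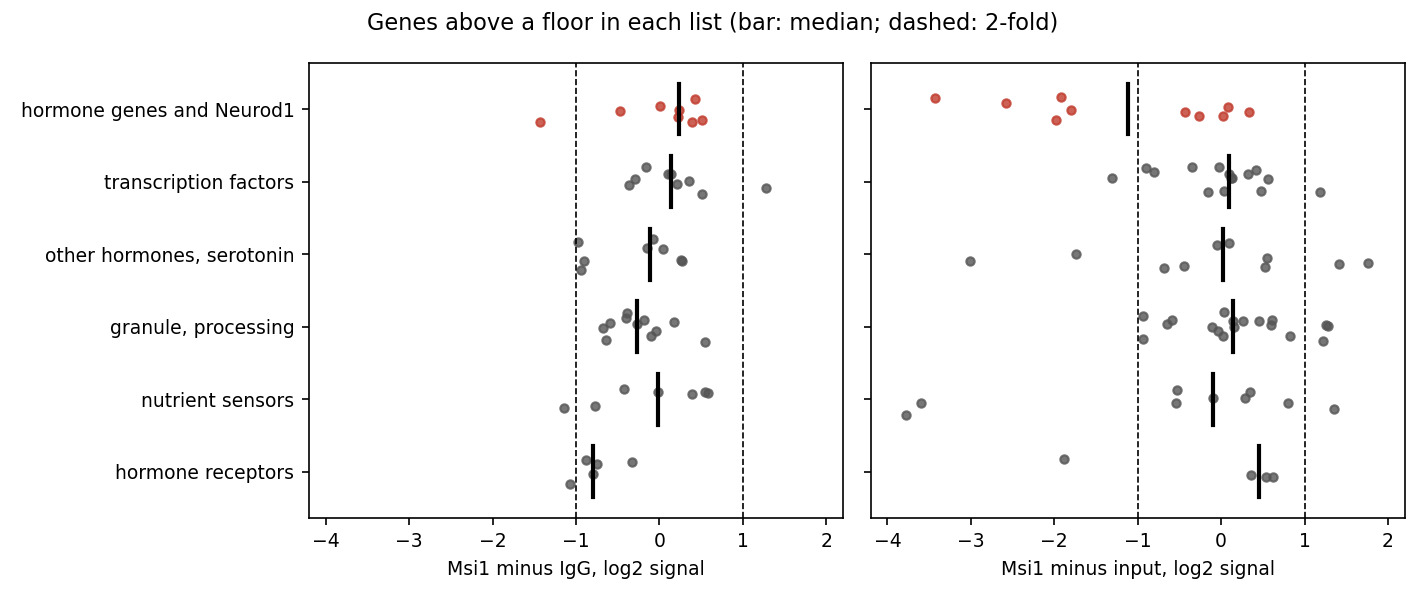
Differences of log2 signal in Msi1 from IgG (left) and from input (right) on the horizontal axes, for genes above a floor in each list (vertical axis, with random jitter); black bars are medians and dashed lines 2-fold. As deposited, the hormone genes and Neurod1 have medians of 0.23 (8 tested, or 0.12 over all 10) and −1.12 (10 tested). The medians of the 5 related lists lie between −0.80 and 0.14 on the left and between −0.10 and 0.45 on the right.

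Markers of other cells that can make the same peptides were looked at beside these values. Of 11 neuronal markers found, 1 was above the floor in the input (Snap25, at 4.35), 3 with IgG, 4 with Msi1 and 5 with hnRNP, and their log2 signals summed to 39.1, 52.4, 48.2 and 53.9 in that order. Of 3 glial markers, 1 was above the floor in input, IgG and hnRNP and 0 in Msi1, with sums of 11.5, 14.0, 12.1 and 13.4 in the same order of arrays. Of 7 pancreatic markers, 4 were above the floor in the input, 2 with IgG, 3 with Msi1 and 2 with hnRNP, with sums of 31.5, 35.5, 33.5 and 34.6. Of 6 immune markers, 5 were above the floor in the input, 2 with IgG, 1 with Msi1 and 1 with hnRNP (sums 32.0, 29.1, 23.9 and 29.4), and of 8 markers of stroma and muscle 3, 3, 5 and 3 were (sums 33.4, 41.5, 40.2 and 41.0). Over all genes, 59.1%, 28.1%, 47.8% and 32.9% were above the floor on the input, IgG, Msi1 and hnRNP arrays. The floor itself differed between the arrays, at 4.09, 5.26, 4.74 and 5.17 in the same order. A sum therefore includes background and does not measure the RNA of a cell type. The insulin gene Ins2 was below the floor on all 4 arrays, at 3.81, 4.85, 4.13 and 4.67. Of the neuronal markers, Elavl4 and Tubb3 alone were below it on all 4, and each of the others was above it on at least 1 array. Prph was above it with IgG, Msi1 and hnRNP, at 5.36, 5.61 and 5.72. The part of neuronal RNA in the Sst, Tac1, Cck and Chgb signals was not tested.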

How the data were processed

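RNA of 4 groups with 1 array each was compared: input, IgG, Msi1 and hnRNP, taken from the antibody in the labels. The values are log2 signals, 1 per probe set, as deposited by the authors; the submitters' processing notes name affy without a version, and neither background correction nor normalization is stated. The log base was read as 2 because values run from 1.07 to 14.3, and the arrays' standard deviations of 1.17 to 2.01 show that they were not quantile normalized. Of 34760 probe sets, 21640 had 1 gene symbol, 1321 several and 11799 none; 21553 matched RefSeq by Entrez identifier. For 954 genes with several probe sets the one with the highest mean was used. A gene was tested when 1 or both arrays compared were above the floor, and called at 2-fold. A fold whose dimmer value lay under the floor is a lower bound, taken against that floor. With 1 array per group no p-value was computed, and the number of arrays limits the precision. Named were all 10 genes, list genes past 2-fold against IgG or input in Msi1, and up to 5 per list that were brightest on input. The genes and lists were chosen with earlier results of these data known. The calling steps were tested on simulated data. Alternatives were 5 scalings (median, quantile, loess with span 0.4, receptor median, floor), no floor or one at the 99th percentile, both arrays above the floor, 1.5-fold and 3-fold, and other choices of probe set. Python 3.11.15, pandas 2.3.3, numpy 2.4.6, statsmodels 0.14.6 and matplotlib 3.10.9 were used.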

Additional observations from a re-analysis of the deposited data

How the results depend on the processing

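The counts of hormone genes past 2-fold depended on scaling, floor and threshold, and single arrays per group leave no measure of spread. No paired analysis was possible because each group has 1 array. Each hormone gene had 1 probe set, so the choice of probe set changed none of their counts. With quantile normalization 3 genes were lower in Msi1 than in input, 3 were lower and 1 higher in IgG than in input, 1 was higher in hnRNP than in input, and 1 was lower in hnRNP than in IgG. With loess centring 3 were lower and 1 higher in Msi1 than in input, 1 lower and 3 higher in IgG, and 3 lower and 2 higher in hnRNP. Loess centring also turned the IgG minus input median of the genes to 0.17, with Chga at 0.33, Gip at 0.01 (0.0076) and Sst at 0.47, and in hnRNP minus input Chgb at 0.37, Gip at 0.0031 and Sst at 0.52. Scaling on the receptor median, or on the floor (an alternative chosen after seeing the data), gave 9 lower genes in IgG than in input and 1 higher in Msi1 than in hnRNP. Scaling on the floor also gave 1 higher (Neurod1, 1.04) and 0 lower in Msi1 than in IgG. In Msi1 against IgG, 0 genes were lower with the floor at the 99th percentile, with detection on both arrays or at 3-fold. With detection on both arrays 2 genes were lower than input in Msi1, 3 in IgG and 3 in hnRNP. At 1.5-fold, 1 was lower in hnRNP than in IgG, 1 higher in hnRNP than in input, and 1 higher and 1 lower in Msi1 than in hnRNP. The share of all genes past 2-fold was not counted under these other settings. The counts there, of hormone genes or of the related lists, thus have no background beside them. The cause of these changes was not tested. Tac1 and Neurod1 stood too near the floors for any direction to be read, and signal over background sets the same limit for Gcg, Cck and Chga in the precipitations.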

Other observations

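Exocrine pancreas genes, measured as markers of neighbouring tissue, did not move as one. Ctrb1, a chymotrypsinogen, read 6.53 in the input, 4.55 with IgG, 5.33 with Msi1 and 4.43 with hnRNP, and was 2.29-fold lower in Msi1 than in input. Cpa1, a carboxypeptidase, read 5.29 in the input, 6.85 with IgG, 5.25 with Msi1 and 5.55 with hnRNP, and was 3.04-fold lower in Msi1 than in IgG. Prss2, a trypsinogen, was above the floor in the input alone, at 4.39.

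Among the epithelial markers, Epcam, an adhesion molecule of all gut epithelial cells, read 9.60 in the input, 5.11 with IgG, 8.07 with Msi1 and 5.55 with hnRNP, and Msi1 exceeded IgG at least 7.0-fold. Vil1, villin of the brush border, exceeded IgG at least 3.57-fold in Msi1 and Cdh1 2.28-fold. These were 3 of 9 epithelial markers at least 2-fold higher, beside 18.6% of all genes tested, and 0 were lower, beside 6.91%. Krt8, Krt18 and Cdx2 differed from IgG by −0.04, −0.44 and −0.18, within the range of the hormone genes. The difference between these markers and the hormone genes was not tested.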
